A study of Mus musculus with 262 samples.

Results

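The single-cell table of this mouse kidney series holds 235 cells, and 32 of them carry the submitters' class name non-epithelial cell. They were taken by the start of the column name and set against all the other cells pooled, which were 87 type A intercalated, 23 type B intercalated, 74 principal and 19 proximal tubule cells. The whole series has 262 samples. The single cells came from kidneys of male C57BL/6 mice aged 2 months, were sorted with the lectins DBA or PNA, an antibody to c-Kit, or DBA and c-Kit together, and were captured on a microfluidic chip. Of the 32 non-epithelial cells, 18 had the sort label DBA + c-Kit, 10 had c-Kit, 4 had DBA and 0 had PNA, so each had passed a gate meant for collecting duct epithelium. Further samples used here were 2 bulk c-Kit and 2 bulk DBA sorts of the same strain, sex and age, 2 GFP-positive and 2 GFP-negative sorts of male mice of the strain Atp6v1b1GFP at that age, and single tubules dissected by hand from kidneys of male C57BL/6 mice of that age, 11 collecting ducts of the cortex (CCD) and 8 thick ascending limbs of the cortex (cTAL). The strain name points to the gene of an H+-ATPase subunit of intercalated cells, and the labels give no further detail of the reporter.

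The kidney interstitium between the tubules holds resident mononuclear phagocytes, a family of macrophages and dendritic cells. They take up debris and immune complexes through Fc and complement receptors, cut proteins in lysosomes, and show the peptides to T cells on MHC class II molecules. CD45, encoded by Ptprc, is a tyrosine phosphatase on all nucleated blood cells and is the usual marker that separates leukocytes from epithelium. Macrophages are a main source of C1q, the recognition part of the classical complement pathway.

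No animal is named for any cell, so the non-epithelial cells and the epithelial cells each count as 1 sample. Means, medians and shares of cells are therefore given with no p-value, and the spread quoted is the spread over cells. Levels are in TPM, a gene's length-corrected share of all transcripts of a cell, which keeps no read depth. A cell was counted as detecting a gene at 1 TPM or more, and the exact Clopper-Pearson 95% intervals of such shares cover counting error only. The number of genes detected was similar on both sides, 1347 to 3919 with a median of 2861.5 in non-epithelial cells and 1092 to 4307 with a median of 2854 in epithelial cells. No doublet call was made, and several cells carried RNA of the opposite class, as the following 2 paragraphs describe.

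Each cell was scored with 12 markers of leukocytes and with 12 markers of kidney epithelium. A marker was counted as present at 10 TPM or more. The leukocyte markers include the 5 genes that mark the class, Cd74, Wfdc17, Ccl3, Lst1 and Ptprc. High counts of them therefore describe the cells and are no test of the label. Non-epithelial cells held 4 to 12 of the leukocyte markers, with a median of 10, and 31 of 32 held at least 8. The exception was cell 21 (the running number of its column), with 4: Cd74 at 19114 TPM, Cd53 at 623, Laptm5 at 448 and Tyrobp at 278, but Ptprc at 0.68. It still held 16 of 18 macrophage markers, among them C1qb at 3135 TPM and Cd68 at 5179. The same 32 cells held 0 to 10 epithelial markers, with a median of 3.5. In 8 cells none was present, 15 cells had 2 or fewer, and 10 cells had 6 or more. All 10 of those epithelial-marker-rich cells also held at least 8 leukocyte markers, and their summed leukocyte-marker level ran from 17071 to 71300 TPM. Of the 32, 8 cells held at least 4 of 8 principal-cell markers, 10 held at least 4 of 11 intercalated-cell markers, 1 held both and 15 held neither. The principal-cell gene Fxyd4, a regulator of the sodium pump, was present in 12 cells and the intercalated-cell exchanger Slc4a9 in 6 others, with no cell at 10 TPM for both. Aqp2, the water channel of principal cells, was present in 11 and the H+-ATPase subunit Atp6v1g3 in 17, and 5 cells had both. The part of this epithelial RNA in the results was not tested beyond repeating the counts without the 10 cells.

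Among the pooled epithelial cells, 2 stood apart from their label, both type A intercalated. Cell A-IC_42 held 10 of 12 leukocyte markers, 5 of 11 intercalated-cell markers and 5 of 8 mast cell and basophil markers, with Gzmb at 16422 TPM, the chymase Cma1 at 8032, the basophil protease Mcpt8 at 7131 and Kit at 1073. Cell A-IC_1 held 6 leukocyte markers and 0 intercalated-cell markers, with Cd53 at 2854 TPM, Laptm5 at 1639, the T cell costimulatory receptor Cd28 at 1566 and Ptprc at 424, while Cd74, C1qb and Kit were at 0. The other 201 epithelial cells held fewer than 5 leukocyte markers each. Low values of leukocyte genes were nevertheless widespread in epithelium. Cd74 reached 1 TPM in 119 epithelial cells (58.6%, interval 51.5% to 65.5%), and 100 TPM in 27.

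**Figure D1:**
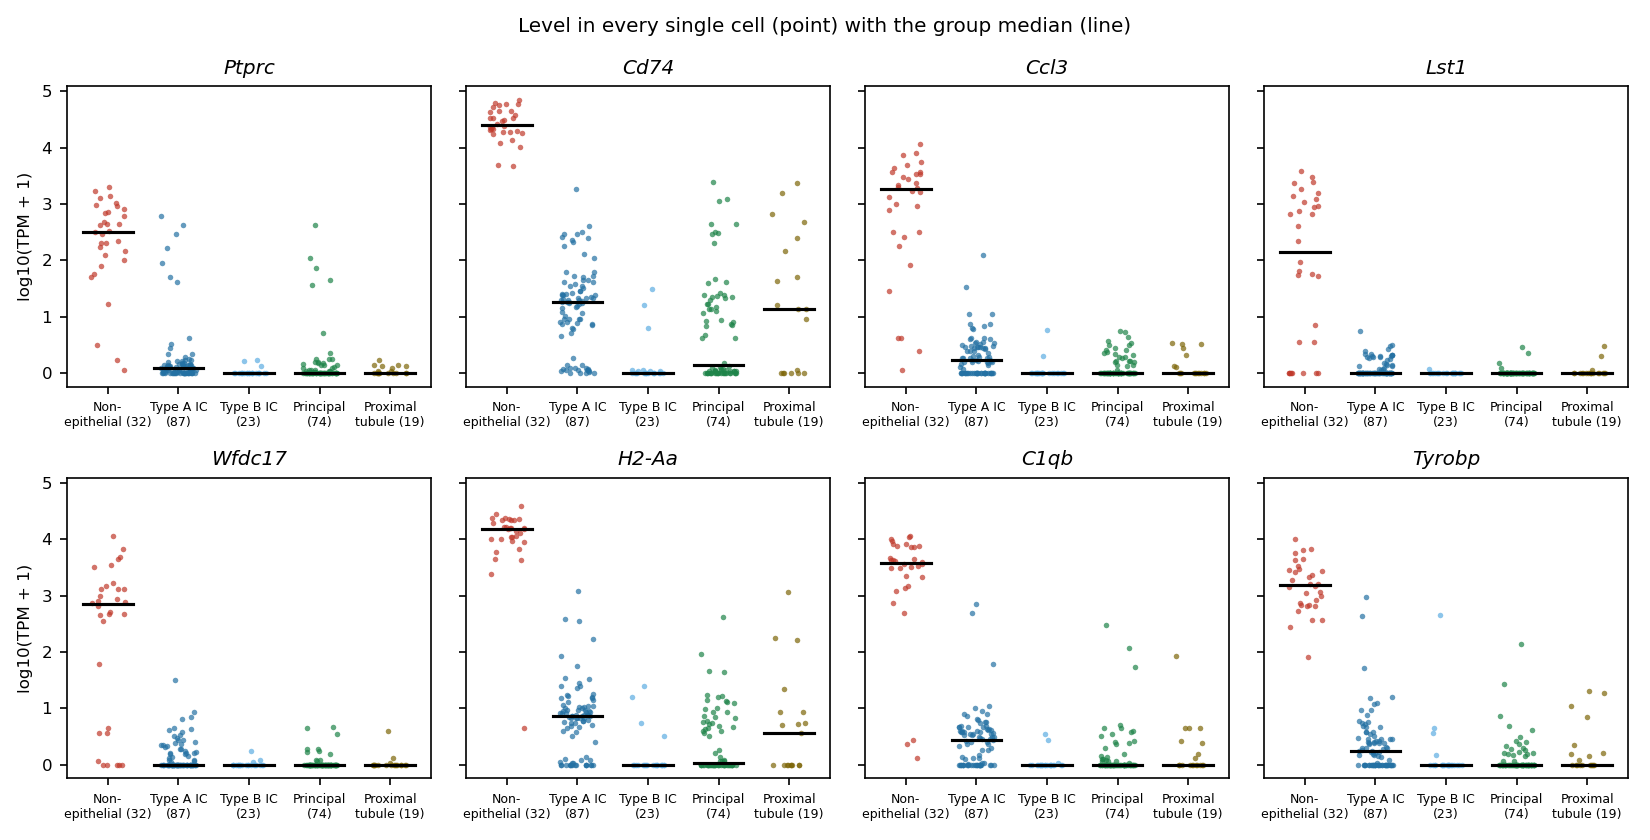
Level of 8 genes in each cell of the 5 classes, as log10(TPM + 1), 1 point per cell and a line at the class median, with the number of cells under each class. The 32 non-epithelial cells lie above all epithelial cells for Cd74 and overlap them for the other genes, and H2-Aa and C1qb show 1 and 3 non-epithelial cells far below the rest.

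Cd74, Wfdc17, Ccl3, Lst1 and Ptprc, the genes that mark the class, were all far higher in the non-epithelial cells. The class was named from these transcriptomes, so this is a description of the cells and no test. Cd74, the invariant chain that chaperones MHC class II molecules, ran from 4736 through a median of 25165 to 71227 TPM in non-epithelial cells. The highest epithelial cell had 2496 TPM, so no cell overlapped. Its mean was 31135 against 92.3 TPM, a difference of 8.38 on the log2(TPM + 1) scale. Ptprc ran from 0.12 through 325 to 1969 TPM. It was found in 30 of the 32 (93.8%, interval 79.2% to 99.2%) and in 19 epithelial cells (9.36%, interval 5.73% to 14.2%). Only 11 non-epithelial cells exceeded the highest epithelial value of 611 TPM, and the difference of means was 5.32. Ccl3, a chemokine that attracts leukocytes, ran from 0.16 through 1844 to 11660 TPM, with 31 cells detecting it and 26 above the highest epithelial cell at 126 TPM. Lst1, a small leukocyte membrane protein, was at 0 in its lowest cell, 156 at the median and 3849 TPM at the highest, and 24 of 32 cells detected it. Its highest epithelial value was 4.63 TPM. Wfdc17, a secreted whey acidic protein family member of activated macrophages, was detected in 26 of 32 cells with a median of 700 and a highest value of 11590 TPM, and in 24 epithelial cells at up to 30.3 TPM. The epithelial values were not evenly spread. Mean Cd74 was 295 TPM in proximal tubule cells, 99.4 in principal, 65.8 in type A and 2.22 in type B intercalated cells, and Ptprc was under 1 TPM in all 23 type B and all 19 proximal tubule cells.

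Over all genes, 14122 had a mean of at least 1 TPM in either class. A gene was called at a log2 difference of at least 2, a 4-fold difference of means after adding 1 TPM, with detection in at least 25% of the cells of the higher class. Of these, 471 were called higher in non-epithelial cells (3.34% of those compared) and 355 lower (2.51%), and the median difference over all was -0.65. Without the 10 epithelial-marker-rich cells the counts were 525 and 733, and without the 2 epithelial cells that held leukocyte markers they were 482 and 357. Ranking by size among the 1325 genes that averaged 50 TPM or more in the class and were detected in 50% of its cells or more gave 30 leading genes. Wfdc17 was first at 9.96 and Tyrobp last at 7.54, and the next 2 outside were the anaphylatoxin receptor C3ar1 at 7.50 and Pld4 at 7.46. Of the leading genes, 5 were detected in every non-epithelial cell, namely H2-Aa, H2-Eb1, Cd74, Ctss and Tyrobp. Removing the single highest cell of a gene moved the leading values little (Wfdc17 from 9.96 to 9.61, Lyz2 from 8.85 to 8.30), with larger steps for Ifi27l2a, from 9.47 to 8.67, where cell 19 held 44.3% of the total, and for the membrane-spanning protein gene Ms4a7, from 9.08 to 8.36, where cell 2 held 41.3%.

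**Figure D2:**
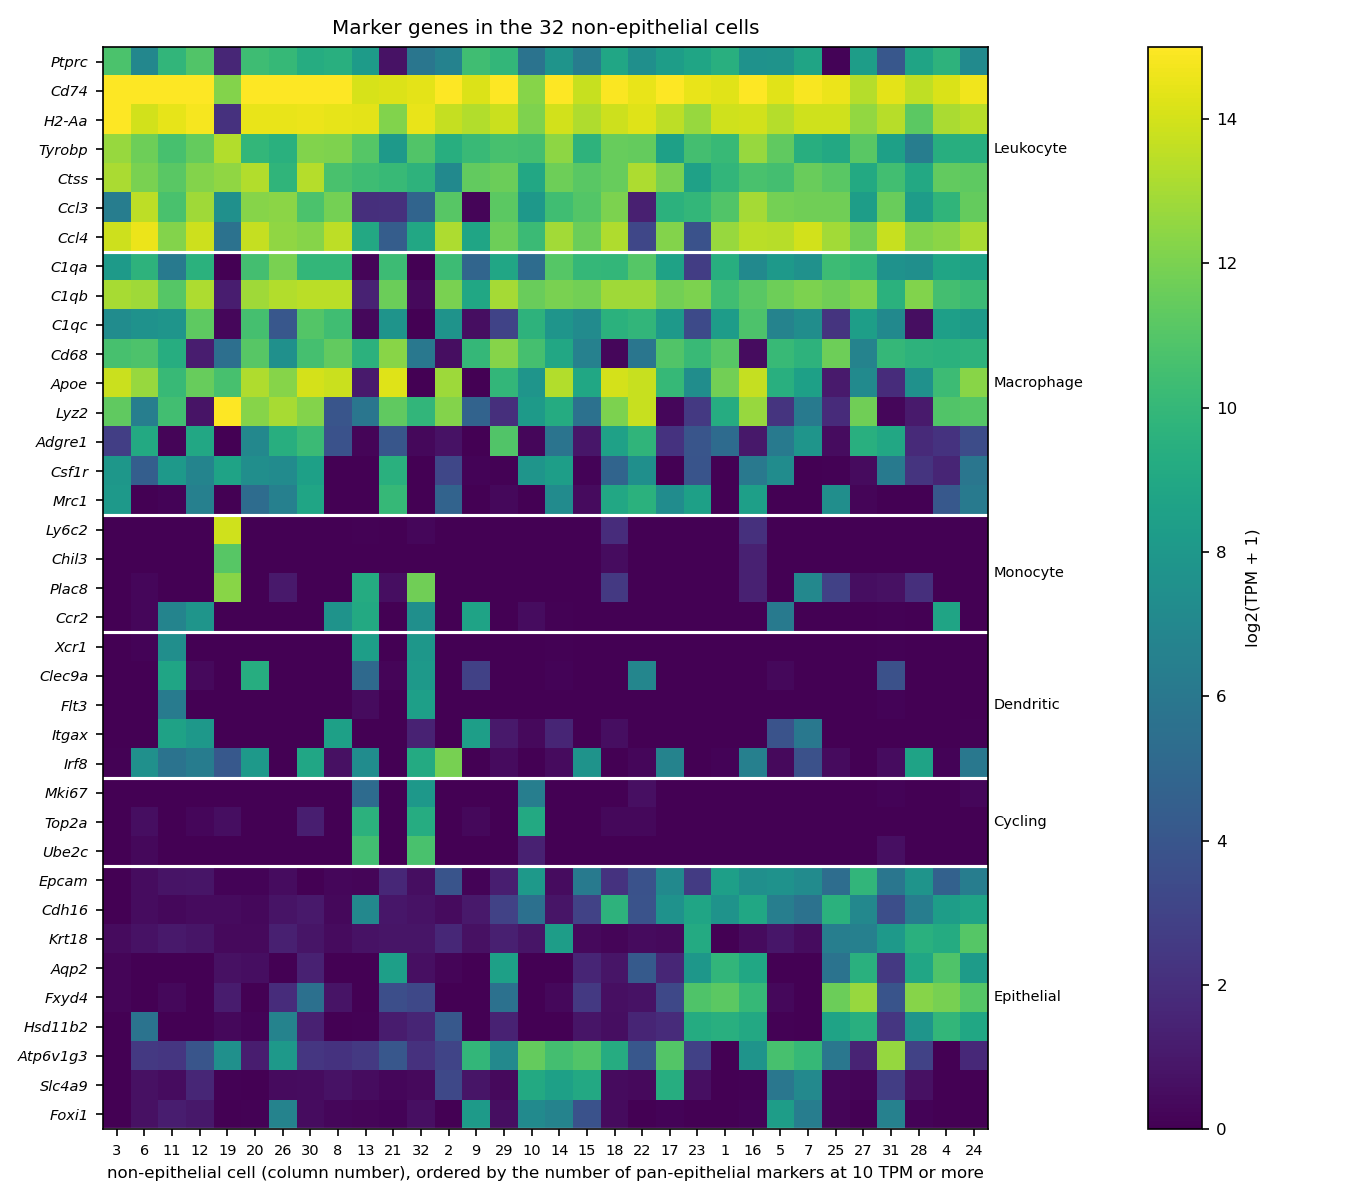
Levels of marker genes, in rows by group, in the 32 non-epithelial cells, in columns ordered by their number of epithelial markers, as log2(TPM + 1) in colour. Cd74 is high in every column, C1qb is near 0 in 3 cells, and the epithelial genes are high toward the right in cells that also carry the leukocyte genes.

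Of 11 MHC class II pathway genes, 6 were called higher, and none lower. The chain genes H2-Aa, H2-Ab1 and H2-Eb1 had means of 14952, 12056 and 8133 TPM in non-epithelial cells against 25.6, 67.6 and 22.4 TPM in epithelium. H2-Aa ran from 3.40 through 15065 to 39019 TPM. For H2-Ab1, 31 of the 32 cells lay above the highest epithelial cell. H2-DMa, the peptide exchange chaperone, had a mean of 1108 against 3.54 TPM, and its partner H2-DMb1 336 against 13.6. The other 5 were found in few cells: H2-Oa in 4, H2-Ob in 6, H2-DMb2 in 5, the class II transactivator Ciita in 6 and H2-Eb2 in 0 of 32. Taking 3 cells as what a count of 0 allows, its share of detecting cells may be up to 9.38%, and the exact interval reaches 10.9%, for counting error only. The summed level of the 11 genes was 8119 to 160553 TPM per non-epithelial cell with a median of 68832, against an epithelial median of 25.9. Of 11 MHC class I genes, which all nucleated cells use to present their own peptides, 9 were called higher by smaller steps. B2m, the light chain, had a mean of 4466 against 539 TPM and was detected in 186 epithelial cells. Tap2 (9.99 against 2.88 TPM) and Tapbp (124 against 66.2) were not called. Of 8 costimulation genes, Cd86 (925 against 5.42 TPM) and Cd83 (1039 against 1.76) were called, while Cd80 and Pdcd1lg2 were detected in 2 cells and 1 cell.

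Promoter sequence was looked up for the leading genes and for both MHC lists. The RefSeq table on GRCm38.p6 held 22 of the 30 leading genes, 8 of the 11 MHC class II and 9 of the 11 MHC class I genes, and the 250 bases before each start were searched on both strands. The 8 letters GAGGAAGT (reverse complement ACTTCCTC), a form of the site of the macrophage factor PU.1, which Spi1 encodes, were present in 3 of 22 leading genes (13.6%), in 1 of 13 leading epithelial genes (7.69%) and in 2.79% of 27025 promoters. The 6 letters GAGGAA (reverse complement TTCCTC), which lie within the first motif, were present in 13 of 22 (59.1%), in 3 of 13 leading epithelial genes (23.1%) and in 25.9% of all. The 8 letters CTGATTGG (reverse complement CCAATCAG), the inverted CCAAT or Y box of class II promoters, were present in 4 of 8 MHC class II genes (50%), 4 of 9 MHC class I genes (44.4%) and 4.43% of all. The windows of Tap1 and Psmb9, both among these class I genes, overlap on opposite strands, so the same letters may be counted for both. The windows below are 250 bases before the start, 5′ to 3′ on the gene's strand, with the motif in capitals. The first 3 are all the leading genes that hold the longer PU.1 motif, and the last 2 are the class II chain genes of the leading set that hold the Y box.
Fcgr4: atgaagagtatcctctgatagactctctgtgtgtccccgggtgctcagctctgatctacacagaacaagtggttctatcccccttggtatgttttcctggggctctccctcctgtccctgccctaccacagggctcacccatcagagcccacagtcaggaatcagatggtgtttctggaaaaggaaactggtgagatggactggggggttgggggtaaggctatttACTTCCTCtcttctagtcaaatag
Slamf9: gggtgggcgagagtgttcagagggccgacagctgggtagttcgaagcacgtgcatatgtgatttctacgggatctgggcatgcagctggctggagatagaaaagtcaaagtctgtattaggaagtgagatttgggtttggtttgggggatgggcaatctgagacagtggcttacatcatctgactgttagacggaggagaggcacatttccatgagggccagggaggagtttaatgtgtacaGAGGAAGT
Mmp12: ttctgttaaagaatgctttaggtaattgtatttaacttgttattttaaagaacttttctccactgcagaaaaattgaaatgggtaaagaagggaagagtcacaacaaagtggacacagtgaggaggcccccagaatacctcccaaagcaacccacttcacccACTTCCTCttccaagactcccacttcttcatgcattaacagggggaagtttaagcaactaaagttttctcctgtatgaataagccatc
H2-Aa: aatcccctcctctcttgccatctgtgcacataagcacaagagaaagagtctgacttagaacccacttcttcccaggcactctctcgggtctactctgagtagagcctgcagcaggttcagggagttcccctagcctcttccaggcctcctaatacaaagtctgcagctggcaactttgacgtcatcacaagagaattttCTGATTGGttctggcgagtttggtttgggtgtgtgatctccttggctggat
H2-Eb1: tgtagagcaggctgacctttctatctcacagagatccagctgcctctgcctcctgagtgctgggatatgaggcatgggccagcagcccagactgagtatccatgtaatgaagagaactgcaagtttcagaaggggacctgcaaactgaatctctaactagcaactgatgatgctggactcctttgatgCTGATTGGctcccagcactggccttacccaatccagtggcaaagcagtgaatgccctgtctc
Fcgr4 lies at chr1:171018676-171018925 on the plus strand, with the motif beginning 24 bases before the start. Slamf9 is at chr1:172475110-172475359 (plus strand, 8 bases), Mmp12 at chr9:7344147-7344396 (plus strand, 88 bases), H2-Aa at chr17:34287824-34288073 (minus strand, 51 bases) and H2-Eb1 at chr17:34305617-34305866 (plus strand, 62 bases). The Y box was also found before H2-Eb2, which no cell detected. A match describes these letters only and says nothing of binding. Spi1 itself was detected in 18 of 32 non-epithelial cells and 4 epithelial cells, with means of 51.8 and 0.97 TPM.

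Of 18 macrophage markers, 17 were called higher, and Cd81 (1057 against 452 TPM, 1.22 on the log2 scale), which epithelium also expresses, was not. C1qb, a chain of C1q, ran from 0.30 through 3835 to 11314 TPM and was detected in 31 of 32 cells and in 73 epithelial cells. At 10 TPM or more, C1qb was present in 29 cells, C1qa in 28 and C1qc in 24, and every cell with C1qa or C1qc also had C1qb. The lysosomal glycoprotein Cd68 (1216 against 1.00 TPM) was detected in 29 cells, lysozyme 2 (Lyz2, 3035 against 5.56) in 29, and the lipid carrier Apoe (5219 against 90.8) in 30. Adgre1, which encodes the macrophage antigen F4/80, was less even. Its median was 13.5 and its highest value 1953 TPM, and 22 cells detected it. The growth factor receptor Csf1r (113 against 6.98 TPM) was detected in 21 cells and the fractalkine receptor Cx3cr1 (234 against 9.68) in 15, with cell 3 holding 50.6% of the Cx3cr1 total.

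Other blood lineages were scarce. Of 8 neutrophil, 8 mast cell and basophil, 7 plasma cell, 10 T cell and 8 NK cell markers, none was called higher. S100a8 and S100a9, the calgranulins of neutrophils, were at 0 in every non-epithelial cell. Cpa3 and Mcpt8 were detected in no cell, and Cd3e, Cd3g, Cd2 and Ncr1 in none. Of 9 B cell markers, Cd79b alone was called (8 of 32 cells, 58.5 against 0.02 TPM), at the 25% limit of detection, and none was called without the 10 epithelial-marker-rich cells, while Ms4a1 and Cd79a were detected in none. Of 4 platelet markers, Pf4, a chemokine that macrophages can also make, was called (14 of 32 cells, 277 against 2.82 TPM). Of 10 endothelial, 7 fibroblast and 8 pericyte and smooth muscle markers, none was called. The endothelial genes Pecam1, Cdh5 and Kdr and the fibroblast gene Pdgfra were detected in no non-epithelial cell. The class name covers any cell outside the epithelium, and the cell type lists with the most genes called were those of leukocytes in general and of macrophages. The leukocyte list holds the genes that mark the class, and both lists hold leading genes. These counts therefore describe the cells and are no test of what they are.

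Monocyte and dendritic cell markers split the class. Of 10 monocyte markers, 2 were called higher, Ccr2 (8 of 32 cells, 68.4 against 0.02 TPM) and Plac8. Of 11 dendritic cell markers, 5 were called: Itgax, Batf3, Irf8, Naaa and Cd83. Much of this came from few cells. Cell 19 held 99.96% of all Ly6c2, the surface antigen of inflammatory monocytes, at 15456 TPM. It had Lyz2 at 33030, Plac8 at 5228, Chil3 at 2235 and the lowest Cd74 of the class at 4736 TPM, with C1qb at 1.28 and H2-Aa at 3.40. Xcr1 and Clec9a mark the cross-presenting dendritic cells known as cDC1. At 10 TPM or more Clec9a was present in 6 cells and Xcr1 in 3, all 3 with Clec9a: cell 11 (Xcr1 at 167 TPM, Clec9a at 459), cell 13 (338 and 33.6) and cell 32 (247 and 261). Cell 32 also had the dendritic growth factor receptor Flt3 at 352 and Irf8 at 583 TPM. C1qb was 0.30 and 1.69 TPM in cells 32 and 13 but 2122 TPM in cell 11. Cells 13, 19 and 32 were the only 3 of the 32 below 10 TPM for C1qb. These cells were picked after their values were seen. The cycling genes Mki67 and Top2a were both present in the same 3 cells, numbers 10, 13 and 32, and Top2a reached 809 TPM in cell 13. None of 8 proliferation genes was called.

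Of 18 chemokine genes, 9 were called higher. Ccl4, a chemokine of the same family as Ccl3, had a mean of 6963 against 50.5 TPM and was detected in all 32 cells, and every 1 of the 28 cells with Ccl3 at 10 TPM or more also had Ccl4. Ccl2, Ccl6, Ccl9, Ccl12, Cxcl2, Cxcl10 and Cxcl16 were the others called. Ccl8 had the larger mean difference, 10.21 on the log2 scale, but in 5 cells only, and cell 22 held 94.2% of its total at 55636 TPM. The same cell held 85.6% of Ccl7 at 11106 TPM. Ccl22, a dendritic cell chemokine, was detected in cell 9 alone at 1099 TPM, together with Ccl17 at 1145. Of 14 cytokine genes, Il1b (1148 against 3.60 TPM, 28 of 32 cells) and Tnf (161 against 0.15 TPM, 14 of 32) were called, and Il10 and Ifng were detected in no cell. Of 11 chemokine and complement receptors, 6 were called, among them C5ar1 and C3ar1.

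Of 12 complement genes 4 were called higher, led by the 3 C1q genes. C3, the central component, had a mean of 1.34 TPM in non-epithelial cells and 8.95 TPM in epithelium. Of 7 Fc receptor genes 5 were called, led by the shared signal chain Fcer1g (2548 against 11.6 TPM) and by Fcgr4 (393 against 0.63 TPM, 16 of 32 cells). Of 14 scavenger and phagocytosis genes 5 were called, namely Axl, Cd36, Stab1, Mrc1 and Hmox1. Cd163, Cd5l, Marco and Timd4, genes of other tissue macrophages, were detected in none of the 32 cells. Of 14 lysosomal protease genes 9 were called. Cathepsin S (Ctss), which trims the invariant chain, ran from 139 through 2297 to 10289 TPM and was detected in every cell, whereas Ctsd (124 against 335 TPM) and Ctsl (156 against 224) were not. Of 14 immediate-early and stress genes, which cell dissociation can induce, Dusp1 alone was called (660 against 120 TPM), and Fos was at 1716 against 1286 TPM. Of 12 interferon response genes, Ifi27l2a and Oasl2 were called, and Ifit1, Ifit3 and Isg15 were detected in 1, 4 and 2 cells. In all, 9 of 18 transcription factors were called, including Spi1, Irf8, Irf5, Runx1 and Zeb2.

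On the epithelial side the differences were smaller. The leading gene was Plet1, a surface protein of some epithelial progenitors, with a mean of 0.73 TPM in non-epithelial and 152 TPM in epithelial cells (-6.47). The other 14 leading epithelial genes lay between -4.32 and -2.65, among them the kidney lineage factor Pax8 (15.5 against 171 TPM), the guanylate cyclase activating peptide guanylin (Guca2a, 108 against 987 TPM) and the carbonic anhydrase Car12 (27.2 against 180). Of 12 epithelial markers only Pax8 was called lower. Epcam (86.8 against 153 TPM) was detected in 19 of 32 non-epithelial and in 180 epithelial cells. Of 8 principal-cell markers 3 were called lower (Aqp2, Avpr2 and Scnn1g), of 11 intercalated-cell markers 2 (Foxi1 and Atp6v1b1), and of 7 proximal tubule markers 0. Without the 10 epithelial-marker-rich cells, 11 of 12 epithelial, 7 of 8 principal-cell and 2 of 11 intercalated-cell markers were called lower. Those 10 cells were chosen by the same 12 markers, so the first of these counts is fixed by that choice. The principal-cell count is not independent of it either, as principal cells held a median of 10 of the 12 markers. The counts of higher genes hardly moved: 17 of 18 macrophage, 11 of 12 leukocyte and 6 of 11 MHC class II genes were called without the 10 cells as with them.

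**Figure D3:**
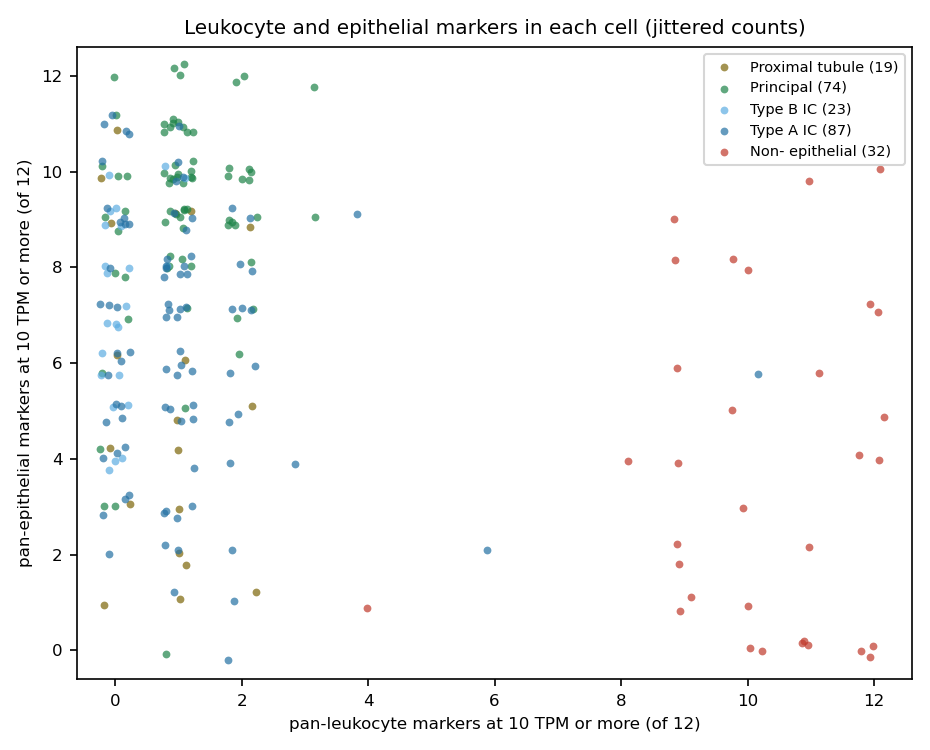
Number of leukocyte markers (horizontal) and of epithelial markers (vertical), each of 12, at 10 TPM or more, 1 point per cell with a small random shift, coloured by class. Of the 32 non-epithelial cells 31 lie at 8 or more leukocyte markers, spread from 0 to 10 epithelial markers, and 2 type A intercalated (IC) cells lie apart from the other epithelial cells.

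The bulk sorts did not enter the naming of the cells, so they allow a test of where these genes were found. Labels do not say that the samples of a group came from separate animals, and p-values measure only the spread between these samples. In bulk, fewer cells of a type and less RNA per cell cannot be told apart. In the c-Kit and DBA sorts, 27 of the 30 leading genes were lower in c-Kit and 1 was higher, against 28.1% lower and 16.1% higher among all 14341 genes compared (limma on log2(TPM + 1), Benjamini-Hochberg adjusted p under 0.05). The median of the 30 was -1.58, and of all genes -0.11. Under quantile normalization the split of all called genes moved from 2315 higher and 4033 lower to 3055 higher and 3072 lower, with a median of 0.02, and the leading genes had 27 lower and 1 higher. The counts over all genes were 1456 higher and 2144 lower without DBA replicate 1, and 1394 higher and 2064 lower without DBA replicate 2. Kit, the gene of the sort antigen, was at 757 and 755 TPM in the c-Kit and 17.9 and 18.5 TPM in the DBA samples.

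**Figure D4:**
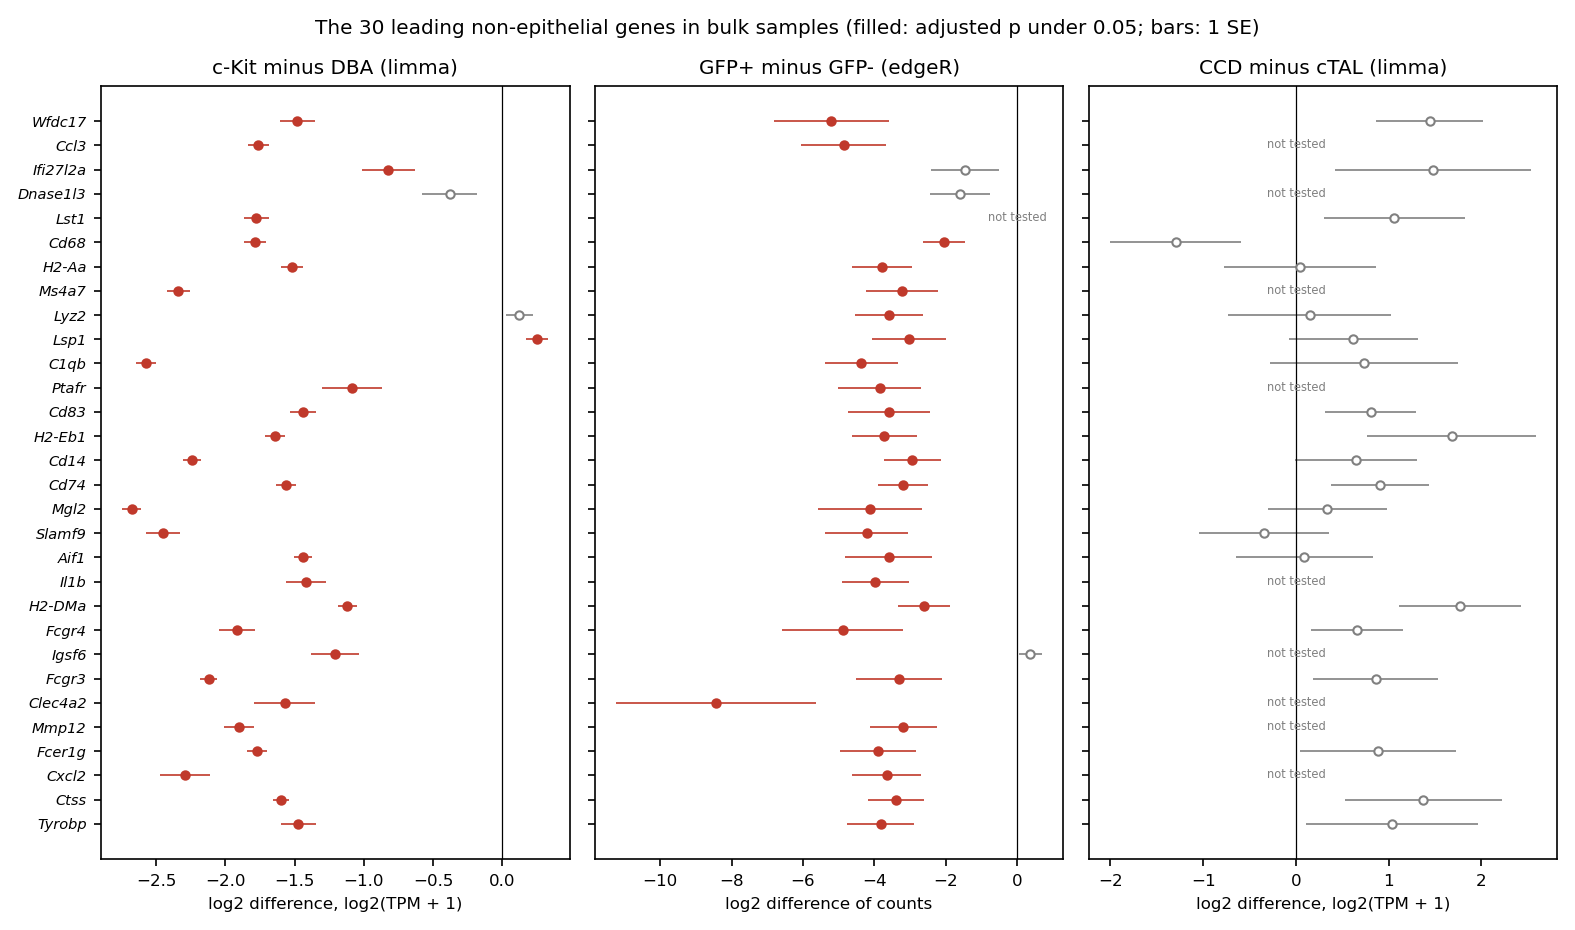
Log2 differences of the 30 leading non-epithelial genes in the bulk sorts and the tubules, 1 row per gene, with bars of 1 SE and filled points at an adjusted p under 0.05. For the GFP sorts the SE was worked back from the difference and its unadjusted p. Most points lie below 0 for c-Kit against DBA and for GFP-positive against GFP-negative, and 19 of 21 lie above 0 without a call for CCD against cTAL.

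Cd74 was at 3580 and 3301 TPM in the c-Kit samples and 9971 and 10334 TPM in the DBA samples. The groups did not overlap, and the difference was -1.56 (SE 0.07, limma adjusted p 1.83e-05). Ptprc was at 37.7 and 34.0 against 72.8 and 73.8 TPM, a difference of -1.01 (limma adjusted p 0.000153). Ccl3 (49.2 and 46.0 against 155 and 172 TPM), Lst1 (37.3 and 35.8 against 119 and 137) and Wfdc17 (51.1 and 65.8 against 154 and 174) were likewise lower in both c-Kit samples, with differences of -1.76, -1.78 and -1.48. Mgl2, a lectin of macrophages and dendritic cells, fell most of the 30: 27.1 and 26.4 against 175 and 178 TPM (-2.68, SE 0.07, limma adjusted p 2.34e-06). C1qb followed with 232 and 262 against 1445 and 1499 TPM (-2.57). Lsp1, a leukocyte actin-binding protein, was the 1 gene called higher, at 88.1 and 77.8 against 69.4 and 69.5 TPM (0.25, SE 0.08, limma adjusted p 0.0455). That call was lost without c-Kit replicate 1 (limma adjusted p 0.151), DBA replicate 1 (0.184) or DBA replicate 2 (0.188). Lyz2 (779 and 898 against 713 and 829 TPM) and Dnase1l3 were not called. Among the genes lower in c-Kit, Ifi27l2a lost its call without c-Kit replicate 1, DBA replicate 1 or DBA replicate 2, Ptafr without either DBA replicate, and Clec4a2 without DBA replicate 2.

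Macrophage and monocyte genes moved in opposite directions between these sorts. Of 18 macrophage markers 17 were lower in c-Kit and 0 higher, with a median of -2.29. Mrc1, the mannose receptor, was at 2.15 and 1.79 against 23.6 and 29.8 TPM (-3.21, SE 0.17, limma adjusted p 2.69e-05). Of 10 monocyte markers 6 were higher and 1 lower, with a median of 1.89. Ly6c2 was at 37.9 and 36.7 TPM in c-Kit against 1.44 and 1.14 in DBA (4.07, SE 0.14, limma adjusted p 6.73e-06), and Ccr2 at 26.5 and 28.4 against 6.14 and 6.18 TPM (1.99). The monocyte marker F13a1 fell by 1.83. Of 11 dendritic cell markers 4 were higher and 2 lower. Xcr1 was at 10.2 and 6.64 against 0.49 and 0.32 TPM (2.72, limma adjusted p 0.000262), Flt3 at 6.83 and 5.06 against 0.26 and 0.18, and Cd209a at 10.3 and 18.6 against 1.83 and 0.88 (2.69). Naaa, the remaining dendritic gene called higher, lost its call without DBA replicate 1 (limma adjusted p 0.126) or DBA replicate 2 (0.146). Itgax, at -1.41, lost it without the same libraries (0.132 and 0.127), and Cd83 was the other gene lower. The summed macrophage-marker level was 2813 to 2943 TPM in c-Kit and 9305 to 9642 TPM in DBA, and the summed monocyte-marker level 193 to 215 and 61.8 to 72.5 TPM.

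Of 12 leukocyte markers all 12 were lower in c-Kit, with a median of -1.52. Of 11 MHC class II genes 7 were lower and 3 higher. The 3 that rose were the peptide-editing regulators H2-Oa (10.9 and 7.48 against 2.88 and 4.37 TPM, 1.14), H2-Ob (0.73) and H2-DMb2 (0.48). The count of 3 fell to 0 without c-Kit replicate 1 or DBA replicate 1, and to 1 without c-Kit replicate 2 or DBA replicate 2. Ciita, at -0.52, lost its call when any 1 of the 4 libraries was left out and under quantile normalization. Of 11 MHC class I genes 10 were lower, and 6 without DBA replicate 2. Of 18 chemokines 13 were lower, led by Ccl8 at 1.55 and 2.75 against 85.3 and 108 TPM (-4.97, SE 0.21, limma adjusted p 1.25e-05). Of 12 complement genes 11 were lower. Mast cell and basophil genes, near 0 in the non-epithelial cells, moved the other way. Of 8 markers 6 were higher and 1 lower in c-Kit, with Cpa3 at 43.8 and 35.8 against 0.13 and 0.17 TPM (5.14) and Mcpt8 at 21.6 and 18.4 against 0.09 and 0.04 (4.30). The calgranulin S100a9 was at 31.4 and 38.8 against 0.37 and 1.57 TPM (4.26). Epithelial composition differed at the same time: all 8 principal-cell markers were lower and all 11 intercalated-cell markers higher. TPM values share a fixed total, and the part of these shifts in the leukocyte differences was not tested.

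**Figure D5:**
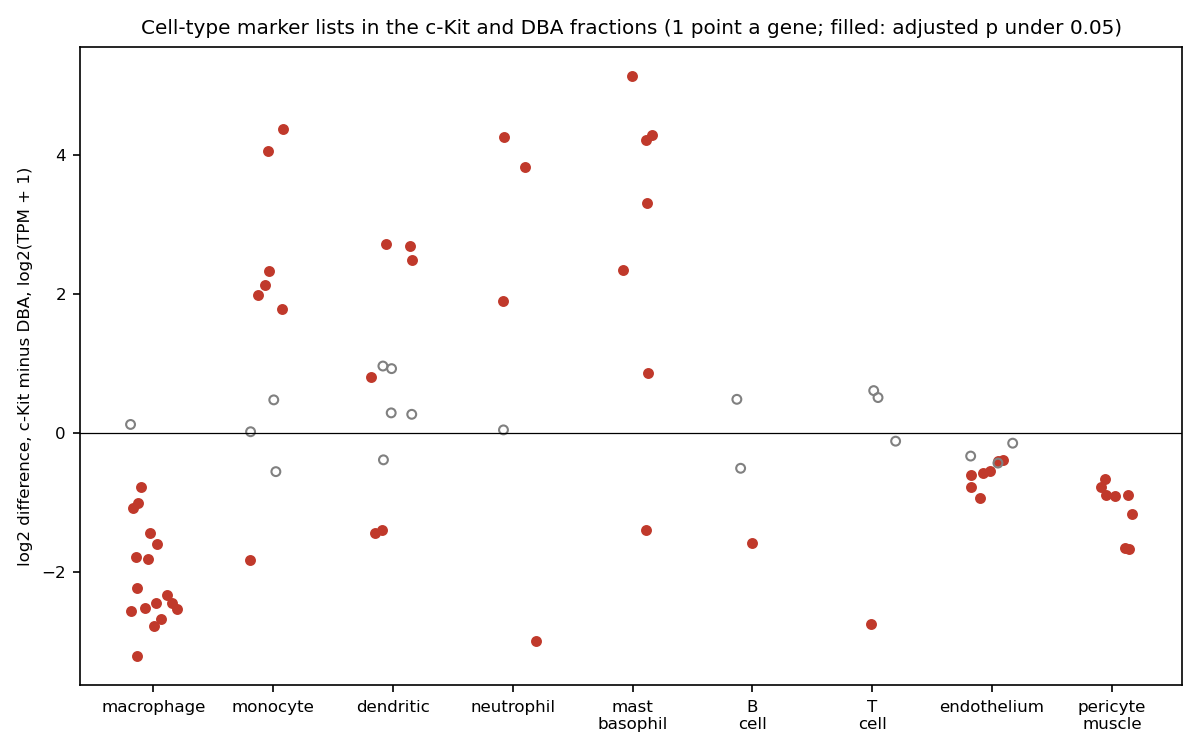
Log2 difference between the c-Kit and the DBA sorts for the tested genes of 9 cell type lists, 1 point per gene, filled at an adjusted p under 0.05. Of the macrophage markers 17 lie below 0, and 6 monocyte and 6 mast cell and basophil markers lie above it as filled points.

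In the GFP sorts the leading genes were found mainly in the GFP-negative samples. Of 30 leading genes 29 passed the low-count filter, 26 were lower in GFP-positive and 0 higher, against 17.3% lower and 15.2% higher among 15667 genes (edgeR quasi-likelihood test, Benjamini-Hochberg adjusted p under 0.05). The same number, 26, had an unadjusted p under 0.05, DESeq2 called 27 lower and 0 higher, and limma on log2(RPKM + 1) called 12 lower and 0 higher. The median of the 29 was -3.60 and of all genes 0.02. Atp6v1b1, whose name the strain carries, had 639 and 390 counts in GFP-negative and 14147 and 16984 in GFP-positive samples. Cd74 had 24796 and 9764 counts in the GFP-negative and 1717 and 1807 in the GFP-positive samples (-3.21, SE 0.70, edgeR adjusted p 0.000158). The SE values printed for edgeR were worked back from the difference and its unadjusted p, so they hold no further information. Ccl3 had 5801 and 1025 against 107 and 107 counts (-4.86), Wfdc17 263 and 98 against 0 and 9 (-5.21), and C1qb 1184 and 349 against 33 and 36 (-4.37). Leaving out 1 library gave -3.63 to -2.61 for Cd74, -5.57 to -3.40 for Ccl3 and -4.91 to -3.48 for C1qb, with the value nearest 0 without GFP-negative replicate 1. For Wfdc17 it was -4.26 without GFP-positive replicate 1, and no fold is given without GFP-positive replicate 2, which leaves a library with 0 counts. Ptprc had 2703 and 600 against 464 and 579 counts, where the groups nearly met (-1.55, SE 0.63, edgeR adjusted p 0.0435). Its call was lost without GFP-negative replicate 1 (edgeR adjusted p 0.504), GFP-positive replicate 1 (0.153) or GFP-positive replicate 2 (0.0795). Clec4a2, a C-type lectin receptor, had 82 and 12 against 0 and 0 counts. Taking 3 counts per library as the floor, it was at least 14.1-fold lower by the GFP-negative mean, which came mostly from replicate 1. Its call was lost without either GFP-positive replicate. Lst1, with 62 and 9 against 1 and 0 counts, was filtered out. Igsf6 (547 and 308 against 602 and 459), Ifi27l2a and Dnase1l3 were not called.

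The GFP-negative replicates differed in their leukocyte content. The summed level of the leading genes was 2839 CPM in replicate 1 and 933 in replicate 2, against 173 to 184 CPM in the GFP-positive pair. CPM are counts scaled by the total counts in genes of each sample. The number of leading genes called lower was 19 without GFP-negative replicate 1 and 27 without GFP-negative replicate 2. Mgl2, Lsp1 and Fcgr4 were among those that lost their call without GFP-negative replicate 1. Over all genes, the number higher in GFP-positive was 1566 without GFP-positive replicate 1, against 2385 with all libraries. Of 18 macrophage markers 15 were lower in GFP-positive, of 12 leukocyte markers 10 and of 11 MHC class II genes 8. Of 10 monocyte markers 7 were lower, 3 without GFP-negative replicate 1 and 4 without GFP-positive replicate 2. Of 8 neutrophil markers 6 were lower, with S100a9, at 0 in the non-epithelial cells, at 798 and 133 against 4 and 3 counts, and 1 was higher, Lcn2 at 828 and 513 against 2545 and 4186. The GFP-negative fraction held other cells too: all 7 proximal tubule, all 7 fibroblast and 9 of 10 endothelial markers were lower in GFP-positive samples.

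In hand-dissected tubules, which passed no sort, 21 of the 30 leading genes had a mean of at least 1 TPM, and limma called 0 higher and 0 lower in CCD against cTAL. Among all 13520 genes 13.2% were higher and 5.5% lower. At an unadjusted p under 0.05 there were 2, Wfdc17 and H2-DMa, and 19 of the 21 had a positive difference, with a median of 0.81 against 0.31 over all genes. With array quality weights 1 was called higher, and with the prefix of the column name as a block 1 higher and 1 lower. The labels do not say what this prefix marks, so tubules that share one may come from 1 animal and may not be independent. Cd74 was 65.2 to 432 TPM with a median of 278 in 11 CCD and 21.9 to 539 with a median of 150 in 8 cTAL, so the groups overlapped throughout (0.91, SE 0.52, limma adjusted p 0.263). Wfdc17 was 0 to 16.2 TPM with a median of 2.79 in CCD and 0 to 8.39 with a median of 0 in cTAL (1.44, SE 0.58, limma adjusted p 0.088). Ccl3 was too low to be tested, and Ptprc had medians of 3.07 and 0.76 TPM. H2-DMb1 was the 1 MHC class II gene called, higher in CCD by 2.72 (SE 0.57, limma adjusted p 0.00127), with 3 called under the prefix block. Of 12 leukocyte markers, Coro1a (2.07) and Arhgdib (6.54) were higher in CCD. Arhgdib was also the 1 leukocyte marker not called in the single cells, at 567 against 167 TPM, with 82 epithelial cells detecting it.

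Of the 471 genes called higher in non-epithelial cells, 459 were tested in the c-Kit and DBA sorts, where 356 were lower in c-Kit and 17 higher with a median of -0.92. In the GFP sorts 444 were tested, 239 lower and 12 higher in GFP-positive, with a median of -1.52. In the tubules 345 were tested, 47 higher and 19 lower in CCD, with a median of 0.53. These tubule counts are close to the shares of all genes called there, 13.2% higher and 5.5% lower, and nothing is read from them.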

How the data were processed

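The authors deposited TPM for single cells, for the bulk c-Kit and DBA sorts and for the tubules (per the file headers for the cells, and read from column sums of 999999.08 to 1000000.51 for the tubules), and counts with RPKM for the GFP sorts. RSEM 1.2.31, STAR 2.5.1b, Seurat and GRCm38.p5 are named in the submitters' processing notes, with no role or order. Depth behind TPM is unknown. In the deposited counts of the GFP sorts, 35528206 to 40809235 reads per sample lay in genes, and 66.7% to 72.8% of all counts lay in rows that name no gene and were left out with 4 unusable symbols. The deposited RPKM entered 1 alternative test only, and the summed levels of the GFP sorts were taken from the counts, as CPM.

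Members and gene lists were chosen with earlier results of these data known. Cells were compared by means of TPM, with a pseudocount of 1 and no test. Bulk TPM was tested with limma 3.58.1 on log2(TPM + 1) at a mean of at least 1 TPM, and counts with edgeR 4.0.16 (R 4.3.3), with DESeq2 1.42.0 as an alternative. Both were tested on simulated data. P-values were adjusted over all genes. Named genes were the 5 marker genes, the 30 leading non-epithelial and 15 leading epithelial genes, list members with the highest mean, at 0 or against their list, and the leading genes with the largest bulk differences. Of 424 symbols, 418 were found in the count table as written, 3 by a synonym and 3 not. Other settings tried were pseudocounts, filters, normalizations, left-out libraries and a replicate block. The running number of a non-epithelial cell is that of its column and was not tied to a sample title. Some genes of the lists are not reported here by name.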

Additional observations from a re-analysis of the deposited data

Results flagged for a closer look

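In the 8 cTAL tubules, 14 items, which were single genes and summed lists, were checked for a single far value. In 5 of them 1 tubule stood above the rest by more than Dixon's 95% critical value. Chance flags about 1 in 20 groups where values are normally distributed and items are separate. That rate does not carry over to TPM near 0 or to lists that share genes, so the 5 are not set against it. All 5 were single genes, and no summed list was flagged. Ptprc was at 9.77 TPM in its highest tubule and 3.46 in the next. Wfdc17 was at 8.39 TPM against 0.21. C1qb was at 122.47 TPM against 55.64. The MHC class II gene H2-DMb1 was at 16.73 TPM against 5.5, and Coro1a at 10.48 against 3.24. H2-DMb1 and Coro1a had their highest value in the same tubule, and the other genes each in a different one.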

How the results depend on the processing

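No result changed direction under any alternative run. Of genes in the single cells, 1507 were higher and 2852 lower with no detection filter, and 207 and 72 with detection in at least 50% of cells. The number lower was 221 with a pseudocount of 5, 186 with detection at 10 TPM, 876 against the epithelial type with the highest mean and 733 without the 10 epithelial-marker-rich cells, an alternative chosen after seeing the data. Of the leading genes, 0 were higher in c-Kit with no low-value filter or no variance trend. Leaving out 1 library gave 0 to 1 higher and 24 to 27 lower in c-Kit, and 0 higher and 19 to 27 lower in GFP-positive samples. Limma on log2(RPKM + 1) called 12 lower in GFP-positive. In the tubules, array quality weights gave 1 higher, and the column prefix as a block, added after seeing the data, 1 higher and 1 lower. Same-numbered samples had deviations correlated at 0.03 (c-Kit and DBA) and 0.18 (GFP) over 2 pairs, too few to settle whether the numbers pair the samples, and the labels do not say. With a replicate block, 27 leading genes were lower and 1 higher in c-Kit, and 26 lower and 0 higher in GFP-positive. Over all genes, leaving out DBA replicate 2 gave 1394 higher and 2064 lower in c-Kit. The cause of these shifts was not tested. With no UMIs and no animals named, the interval of a share of cells at 1 TPM covers counting error only and leaves out other spread.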
